A study of Rattus norvegicus with 458 samples.

Results

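Whole blood was compared with the solid organs of the same rats. It was represented by 10 small RNA libraries, 1 from each of 10 naïve Sprague Dawley rats (5 male, 5 female, 12 to 13 weeks old, without any treatment or genetic change), out of the 215 libraries of 23 tissue labels that the deposited runs add up to. The comparison group held 185 libraries of 21 solid tissue labels from the same rats, with 4 to 10 libraries for each label. Each label is called an organ here, although several are parts of the same organ. Brain regions, segments of the small intestine, parts of the stomach, and the kidney with its cortex and medulla each count as separate organs. So do the soleus and biceps femoris muscles. The dorsal root ganglion, which was pooled within each sex, was left out, and so were 10 libraries (4 duodenum, 3 hippocampus, 1 adrenal, 1 ovary and 1 uterus) that an earlier examination of these data had found closer to another tissue than to their own label. The rats were euthanized with CO2, and the blood, like the organs, was stored in RNAlater and its total RNA isolated from all cells and plasma together. The comparison asks which miRNAs set blood apart from organs that themselves contain blood.

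A microRNA (miRNA) is a short RNA that pairs with messenger RNAs mainly through its seed, bases 2 to 8 from its 5′ end, and lowers their output. In whole blood most cells are red cells, which have no nucleus but keep the miRNAs made during their maturation, and leukocytes and platelets add miRNAs of their own. The pair miR-144 and miR-451 is transcribed from 1 locus under the control of the erythroid factor GATA1, whereas miR-142, miR-150, miR-155 and miR-223 are known from leukocytes. miRNAs such as miR-143, miR-145, miR-126 and the miR-200 family mark smooth muscle, endothelium and epithelium, which blood cells do not include, although platelets are known to hold miR-126 as well.

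The sequences below are those on which the comparison turns. They are the mature rat forms listed by RefSeq for the GRCr8 assembly, printed 5′ to 3′ with the seed in capitals. miR-451-5p, miR-191a-5p, miR-92a-3p, miR-25-3p and miR-16-5p are among the 12 highest names in blood, and miR-144-3p is the erythroid partner of miR-451. miR-93-5p and miR-17-5p share a seed whose members were all higher in blood, and miR-125a-5p has a seed whose members were all lower. The others share a seed with a miRNA that went in the opposite direction. RefSeq held a sequence for 527 of the 677 single mature names that were tested.
miR-451-5p: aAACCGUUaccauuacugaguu
miR-144-3p: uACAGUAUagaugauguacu
miR-191a-5p: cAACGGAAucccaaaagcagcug
miR-92a-3p: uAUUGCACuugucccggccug
miR-25-3p: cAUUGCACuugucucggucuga
miR-93-5p: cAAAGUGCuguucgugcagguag
miR-17-5p: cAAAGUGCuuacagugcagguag
miR-16-5p: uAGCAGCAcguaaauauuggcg
miR-15b-5p: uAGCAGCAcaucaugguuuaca
miR-195-5p: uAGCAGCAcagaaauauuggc
miR-497-5p: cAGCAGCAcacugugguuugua
let-7f-5p: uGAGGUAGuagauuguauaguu
let-7i-5p: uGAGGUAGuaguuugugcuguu
let-7e-5p: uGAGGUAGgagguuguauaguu
miR-148b-3p: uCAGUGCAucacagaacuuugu
miR-152-3p: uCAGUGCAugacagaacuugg
miR-125a-5p: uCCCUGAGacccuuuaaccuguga

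Levels are given in CPM, the counts of a name per 1000000 counts of its library, after every name containing miR-486 was removed. This removal matters in blood, since those names held between 80.2% and 91.1% of the counts of a blood library (median 85.8%) and between 0.0116% and 9.27% of an organ library (median 0.245%). The blood libraries held 4705379 to 9939192 counts, of which 512623 to 1249464 remained without miR-486, so a name without any count in a blood library may still have stood at up to 2.40 to 5.85 CPM (3 counts), a limit that covers counting error only. Organ libraries held 373219 to 17716652 such counts. The blood libraries resembled each other, with Pearson's r of 0.948 to 0.986 between any pair over the single mature names (log2 of CPM + 1). Over all tested names, predicted ones included, r was 0.832 to 0.970. CPM values are shares, and the amount of RNA in each cell, or the number of cells of a kind, cannot be read from them or told apart in bulk RNA.

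The blood library of rat 6 stood apart from the other 9. It held miR-1-3p, miR-133a-3p, miR-208a-3p and miR-499-5p, which are known from heart or skeletal muscle, at 10.3% to 13.4% of their level in the heart of the same rat, and miR-208b-3p at 4.90%. miR-208a-3p, which is encoded within a heart myosin gene, stood at 66.4 CPM in that blood library, against 0 in 8 of the other 9 libraries and 3.90 CPM in the blood of rat 3. miR-133a-3p stood at 15365 CPM there and at a median of 129.5 CPM in the other 9. miR-126a-3p of the endothelium (784 CPM, against 27.6 to 132 CPM) and miR-143-3p (13706 CPM, against 990.2 to 6150.1 CPM) were also highest in that library, at 12.3% and 15.2% of the same rat's heart. In contrast, its miR-451-5p (26792 CPM) lay within the range of the others, as the plot of blood levels against the heart shows. Where leaving out this library moved a named difference by over 1.5 times, the value without it is given as well.

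**Figure D1:**
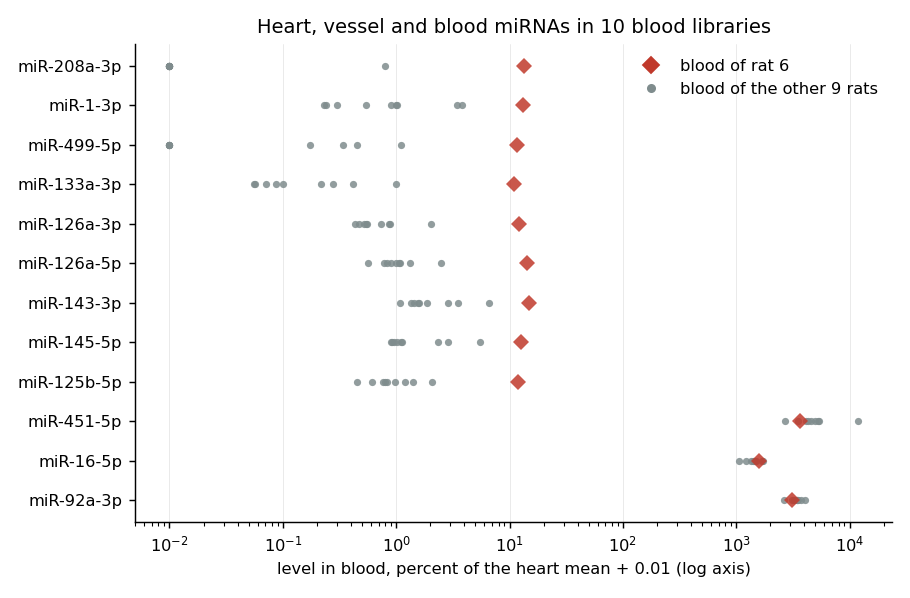
Level of 12 miRNAs in each blood library as a percentage of their mean in 10 heart libraries (x axis, log scale after adding 0.01). Diamonds are the blood of rat 6, which lies near 10 to 15% of the heart for the 9 heart, vessel and stromal miRNAs at the top, above the circles of the other 9 rats; for miR-451-5p, miR-16-5p and miR-92a-3p it lies among them.

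The blood profile was led by few miRNAs. After removal of miR-486, 6 names held 50% and 29 names 90% of the mean blood CPM, and the 12 highest names together took 69.4% to 78.0% of the counts of a blood library, against 4.36% to 53.3% of those of an organ by organ means. The first by mean CPM was miR-191a-5p, which lay between 104605 and 192155 CPM with a median of 132099 in blood. Its highest organ, the hippocampus, had a mean of 26510 ± 2511 CPM (SD, n = 7), so that no organ library (2445 to 29663 CPM) reached any blood library. miR-92a-3p, a member of the miR-17-92 cluster, lay between 104877 and 159880 CPM with a median of 132209 in blood and had a mean of 16801 CPM in its highest organ, the testis. miR-16-5p, which is abundant in red cells, lay between 81532 and 132886 CPM with a median of 112484, and again every blood library was above every organ library, of which the highest held 22705 CPM.

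Next in order were miR-181a-5p, let-7f-5p, miR-26a-5p, let-7i-5p, miR-25-3p, miR-451-5p, let-7c-5p, miR-27b-3p and miR-30a-5p. Their mean levels in blood fell from 63420.1 CPM for miR-181a-5p to 21648 CPM for miR-30a-5p. Neighbours in this order were mostly not separated. let-7f-5p (53621 ± 6692 CPM, SD, n = 10), miR-26a-5p (52650.1 ± 10931 CPM), let-7i-5p (48469 ± 6461 CPM) and miR-25-3p (45799 ± 9664 CPM) differed by no more than their spread between rats. Abundance in blood and difference from the organs were separate matters. Of these 12 miRNAs, 8 were higher in blood than in each of the 21 organs, while miR-181a-5p, miR-26a-5p, miR-27b-3p and miR-30a-5p were not. miR-181a-5p, known from lymphocytes and from brain, was at 228245 CPM in the cerebellum and lower in blood than in 4 organs. On the CPM scale miR-30a-5p gave a log2 difference of -0.08 from the mean of the organs (adjusted p = 0.255, edgeR), but was called lower with TMM factors, at -1.14, and with DESeq2, at -0.80.

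The formal comparison set the 10 blood libraries against the mean of the 21 organs in edgeR's quasi-likelihood test. Each of the 21 labels counted equally on the log2 scale, so brain and kidney weighed more than organs with a single label. Benjamini-Hochberg adjustment was over 1360 names. An adjusted p under 0.05 was reached by 598 names that were higher in blood (44% of those tested) and by 275 that were lower (20.2%). Of the 598, 343 were names of predicted miRNAs and 214 were single mature miRNAs, while 236 of the 275 lower names were single mature miRNAs. A few blood libraries, the scaling and the depth moved these counts. After every library was thinned to 373219 counts, 260 names were higher and 169 lower. The blood of rats 9 and 10 had 4.10% and 3.56% of its counts on predicted names, against 0.695% to 1.43% in the other 8, and without both libraries 380 names were higher. With TMM factors in place of the plain CPM total, 318 names were higher and 356 lower, the share of calls that were higher fell from 68.5% to 47.2%, and the median log2 difference of all names moved from 0.55 to -0.56. With DESeq2 the counts were 373 and 360, and with upper quartile factors 600 and 264. A call in the same direction under all 4 scalings was made for 280 higher names (20.6%) and 261 lower names (19.2%).

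A stricter reading asks for a difference from each organ separately. Higher in blood than in every organ, with an adjusted p under 0.05 in all 21 contrasts, were 116 names (8.53%), 79 of them single mature miRNAs, and lower than in every organ were 48 names (3.53%), 42 of them single mature miRNAs. Without the blood of rat 6 these counts were 115 and 52, and 114 and 47 of the names were in both. TMM factors gave 87 and 84, and 84 and 36 names were called under the CPM, upper quartile and TMM scalings alike. For 61 names (4.49%) the lowest blood library was above the highest organ library. The reverse held for 7 names (0.515%), which were let-7e-5p, miR-99b-5p, miR-125a-5p, miR-195-5p, miR-497-5p, miR-204-5p and miR-218a-5p. These 7 were found by the non-overlap and not chosen for their function.

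**Figure D2:**
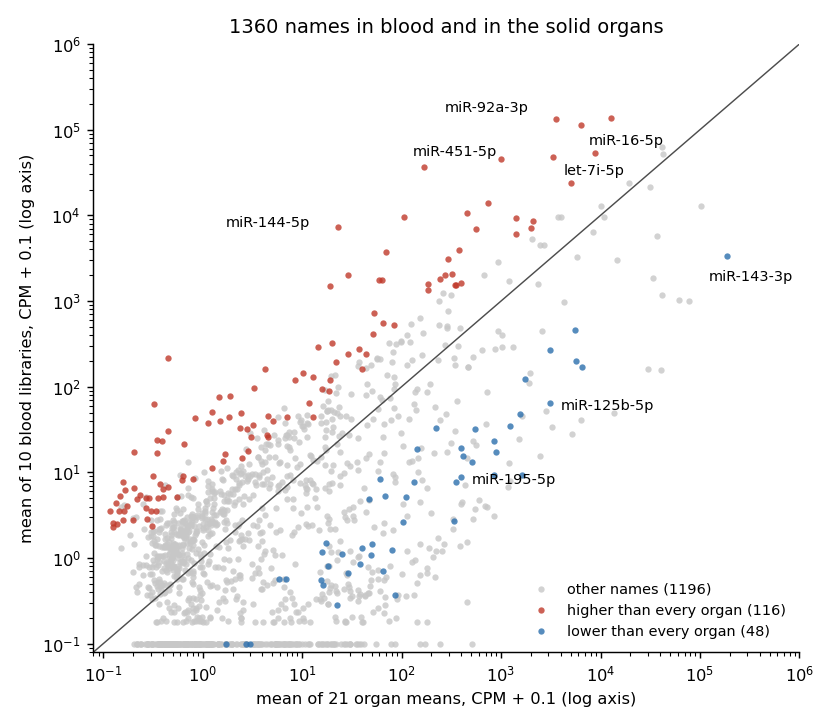
Mean CPM of 1360 names in 10 blood libraries (y axis) against the mean of 21 organ means (x axis), both on log scales after adding 0.1, with a line of equal level. Red points are the 116 names higher in blood than in every organ, blue points the 48 that were lower than in every organ, and grey points all others.

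The 4 strands of the erythroid locus were among the 12 largest rises of single mature miRNAs, and miR-451-3p and miR-144-5p had the largest. miR-451-3p, from the 3′ arm of miR-451, lay between 131 and 257 CPM with a median of 235 in blood and at no more than 3.72 CPM in any organ library. Its log2 difference was 10.07 ± 0.18 (SE). miR-451-5p, whose precursor is cut by Argonaute 2 and not by Dicer, lay between 19842 and 87505 CPM with a median of 32884 in blood, the highest value being that of rat 3. Its mean in the organs reached from 0.0280% of the blood mean in the ileum to 2.35% in the liver, and its log2 difference was 8.77 ± 0.11 (SE). miR-144-5p rose by 9.40 ± 0.11 (SE) and miR-144-3p by 7.35 ± 0.14 (SE), the latter with organ means from 0.0647% of the blood level in the non-glandular stomach to 8.02% in the liver. All 4 strands were higher in blood than in every organ, and in the order of organs by miR-451-5p the liver was followed by the heart (738 CPM).

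All 12 of the largest rises were higher in blood than in every organ, though several of these miRNAs were scarce. miR-3107-5p, at 9488 ± 5815 CPM (SD, n = 10), carried the largest level of these after miR-451-5p. Its leading sequence, tcctgtactgagctgccccgagc, began with the 22 letters of the leading sequence of the miR-486-5p composite name, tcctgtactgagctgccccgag, and had 1 more letter at the 3′ end. The removal of names containing miR-486 did not touch this name. Its level was uneven, between 4596 and 25117 CPM in blood and 0 to 3959.7 CPM in organ libraries. miR-106b-3p, of the cluster with miR-25 and miR-93, rose from an organ mean of 28.9 CPM to 1991 ± 374 CPM, a log2 difference of 6.38 ± 0.07 (SE).

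The other members of this group lay below 120 CPM in every blood library. They were miR-3590-3p (log2 difference 8.57), miR-7687-5p (7.32), miR-3473 (6.68), miR-6937-5p (6.61), miR-5126 (6.51) and miR-191b (6.48). Their functions are not well known. miR-3590-3p and miR-191b each match 20 letters of the reverse complement of a mature strand of another miRNA gene, namely miR-130a-5p and miR-191a-3p.

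**Figure D3:**
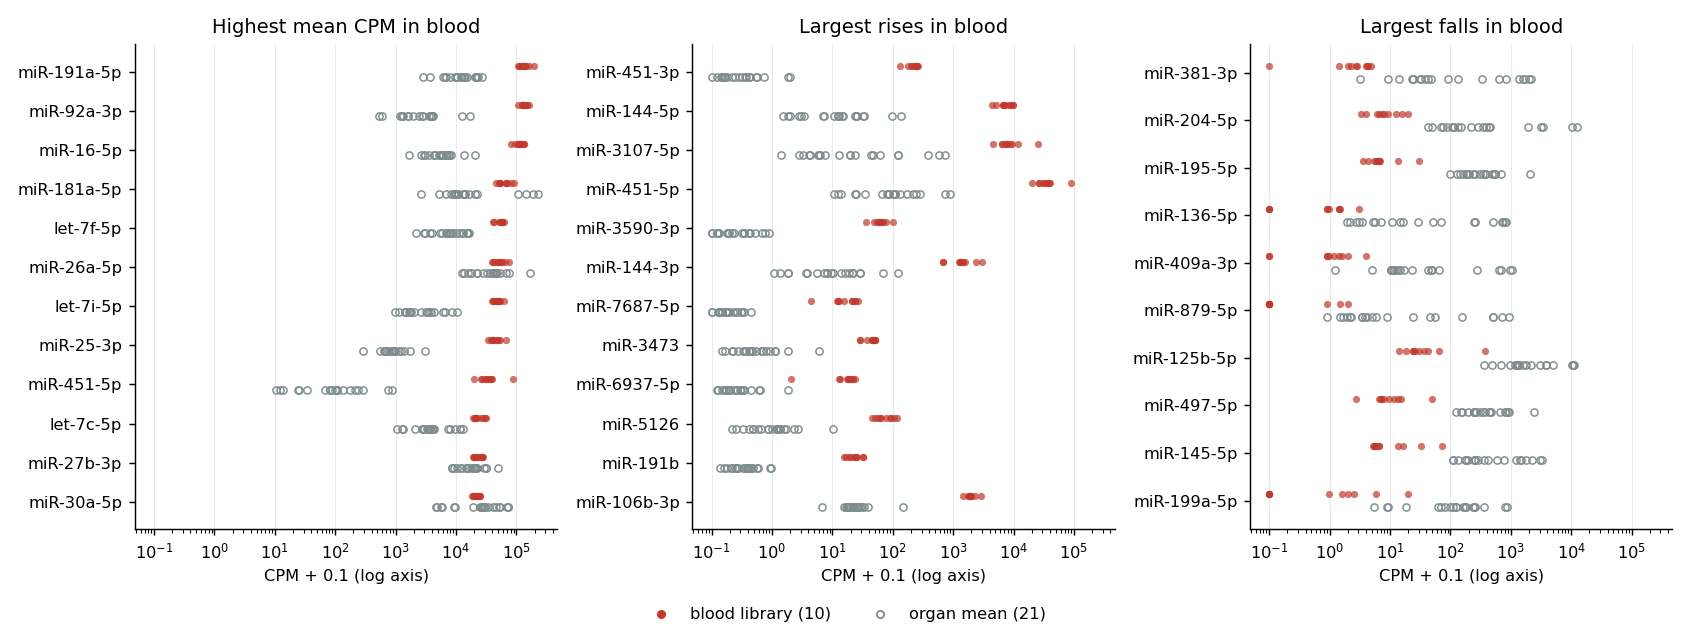
CPM (log axis, 0.1 added) of the 12 miRNAs with the highest mean in blood, the 12 with the largest rise and the 10 with the largest fall. Filled red circles are the 10 blood libraries and open grey circles the means of 21 organs; red and grey do not meet for any of the 12 rises, whereas 4 of the 12 most abundant miRNAs have organ means at or above blood.

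The largest falls took in several kinds of miRNA. miR-195-5p and miR-497-5p, which share a locus, lay between 3.44 and 29.6 CPM with a median of 6.22 and between 2.64 and 49.6 CPM with a median of 8.71 in blood, with the highest value of both in rat 6, and had organ means no lower than 97.3 and 122 CPM. miR-125b-5p had a log2 difference of -4.88, from an organ mean of 3105 CPM to a blood median of 27.8 CPM, and without rat 6 the difference was -5.95. miR-204-5p, known from the choroid plexus and eye, had a log2 difference of -5.14 ± 0.23 (SE). miR-145-5p (-4.79) and miR-199a-5p (-4.78) are miRNAs of smooth muscle and fibroblasts, and without rat 6 their differences were -5.47 and -6.07.

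The remaining falls, miR-381-3p (-5.24), miR-136-5p (-5.01), miR-409a-3p (-4.99) and miR-879-5p (-4.90), were near or under the counting limit in blood. miR-879-5p had no count in 7 of 10 blood libraries. miR-381-3p, miR-136-5p and miR-409a-3p come from the imprinted Dlk1-Dio3 region of chromosome 6, an array known for its high level in brain and its low level in most adult tissues, and their highest organs were the cerebellum, the cerebrum and the hippocampus. None of the 4 was lower in blood than in every organ, since the liver or the biceps femoris was as low as blood. Of the 10 largest falls, 5 were lower than in every organ.

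Because each organ counted equally on the log scale, a miRNA confined to 1 organ could be called higher in blood while that organ held far more of it. This was the case for miR-122-5p, the liver's main miRNA, which lay between 25.7 and 74.8 CPM with a median of 41.8 in blood. Its log2 difference from the mean of the organs was 3.93 ± 0.35 (SE), although the liver held 34299.5 CPM, since the next organ held 15.8 CPM. miR-449a-5p of the testis (4.50), miR-128-3p of the brain (1.79) and miR-1-3p of muscle (2.99) were called higher in the same way, and with all organ libraries taken as 1 group their differences were -2.24, -2.20 and -3.52, none of which passed the test (edgeR, adjusted p = 0.248, 0.12 and 0.0942). Of the 598 names called higher, 312 had a mean above that of blood in at least 1 organ and 59 had an arithmetic organ mean above blood.

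Markers of red cells and leukocytes stood high in blood. All 4 erythroid strands were higher in blood than in every organ, and their summed level was 25076 to 97236 CPM in the blood libraries against 13.5 to 1133 CPM in the organ means. All 8 leukocyte miRNAs were called higher than the mean of the organs, 7 of them under all 4 scalings, and 4 were higher than every organ. Their sum lay between 6123 and 12956 CPM in blood, and 3498 CPM in the heart was the highest organ mean. For comparison, 44% of all names and 214 of the 677 single mature names were called higher, 79 of the latter than every organ.

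The 4 leukocyte strands above every organ were miR-142-3p, miR-142-5p, miR-150-3p and miR-223-5p. miR-142-5p lay between 4077 and 9592 CPM with a median of 6929.8 in blood and had a mean of 1919 CPM in its highest organ, the liver. miR-142-3p had a log2 difference of 4.32 ± 0.10 (SE). miR-150-5p, a miRNA of mature lymphocytes, stood at 2031 ± 755 CPM (SD, n = 10) in blood, and at 2187 CPM in the heart, so that blood was not higher than this organ. miR-223-3p of granulocytes had a log2 difference of 2.36 ± 0.11 (SE) and a mean of 136 CPM in the uterus, against 167 CPM in blood. miR-146a-5p, a brake on innate signalling, gave 1.47 ± 0.13 (SE) on the CPM scale and lost its call with TMM factors, at 0.33 (edgeR, adjusted p = 0.106).

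Markers of vessel walls, connective tissue and epithelium were low. miR-126a-3p and miR-126a-5p, listed for both endothelium and platelets, were lower than in every organ. Their log2 differences were -3.38 ± 0.20 (SE) and -3.19 ± 0.21 (SE), and without rat 6 they were -4.68 and -4.32. The 5 smooth muscle and mesenchyme miRNAs were all lower, 3 of them than every organ. miR-143-3p, the most abundant of them, had a log2 difference of -4.49, and of -5.09 without rat 6. It lay between 990.2 and 13706 CPM with a median of 1585 in blood, whereas its organ means spanned 13289 CPM in the cerebellum to 841287 CPM in the non-glandular stomach. The 5 epithelial miRNAs were lower than the mean of the organs, from -4.16 for miR-200b-3p to -2.06 for miR-200c-3p, and none was lower than every organ, since muscle, heart and adrenal held as little. For comparison, 20.2% of all names and 236 of the 677 single mature names were called lower, 42 of the latter than every organ.

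For the striated muscle markers the library of rat 6 decided calls. Of the 6 striated muscle miRNAs, 5 were called higher and 1 lower with all blood libraries, and 3 higher and 2 lower without rat 6. With all libraries, 44% of all names were called higher and 20.2% lower. Of the 677 single mature names, 214 were called higher and 236 lower. miR-208a-3p went from 5.33 with rat 6 to 1.46 without it (adjusted p = 0.0399), and miR-133a-3p, called higher with it, changed sign to -1.02 (adjusted p = 0.00544). miR-499-5p, -0.74 with rat 6, was -3.25 without it. miR-1-3p went from 2.99 to 2.03 and stayed called, and miR-208b-3p went from 2.70 to 0.98 and lost its call (edgeR, adjusted p = 0.164). The summed striated muscle level was 15672 CPM in the blood of rat 6 and 70.4 to 1450 CPM in the other 9. With the organs as 1 group, none of the 6 was higher in blood and 3 were lower.

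Smaller lists gave mixed results. Of 5 neuronal miRNAs, 1 was higher and 2 were lower, the latter including miR-9a-5p (-1.95). Of 4 pancreas miRNAs, miR-375-3p of endocrine and gut cells was lower (-3.50), and the other 3 did not pass the test. Of 3 miRNAs of gut and kidney, 2 were lower, among them miR-192-5p (-1.90), which still stood at 1188 ± 110.3 CPM in blood. Of 3 germ cell miRNAs, 1 was higher and 2 lower, and of 2 hepatocyte miRNAs 1 was higher. Of all names, 44% were called higher and 20.2% lower, and of the 677 single mature names 214 and 236.

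**Figure D4:**
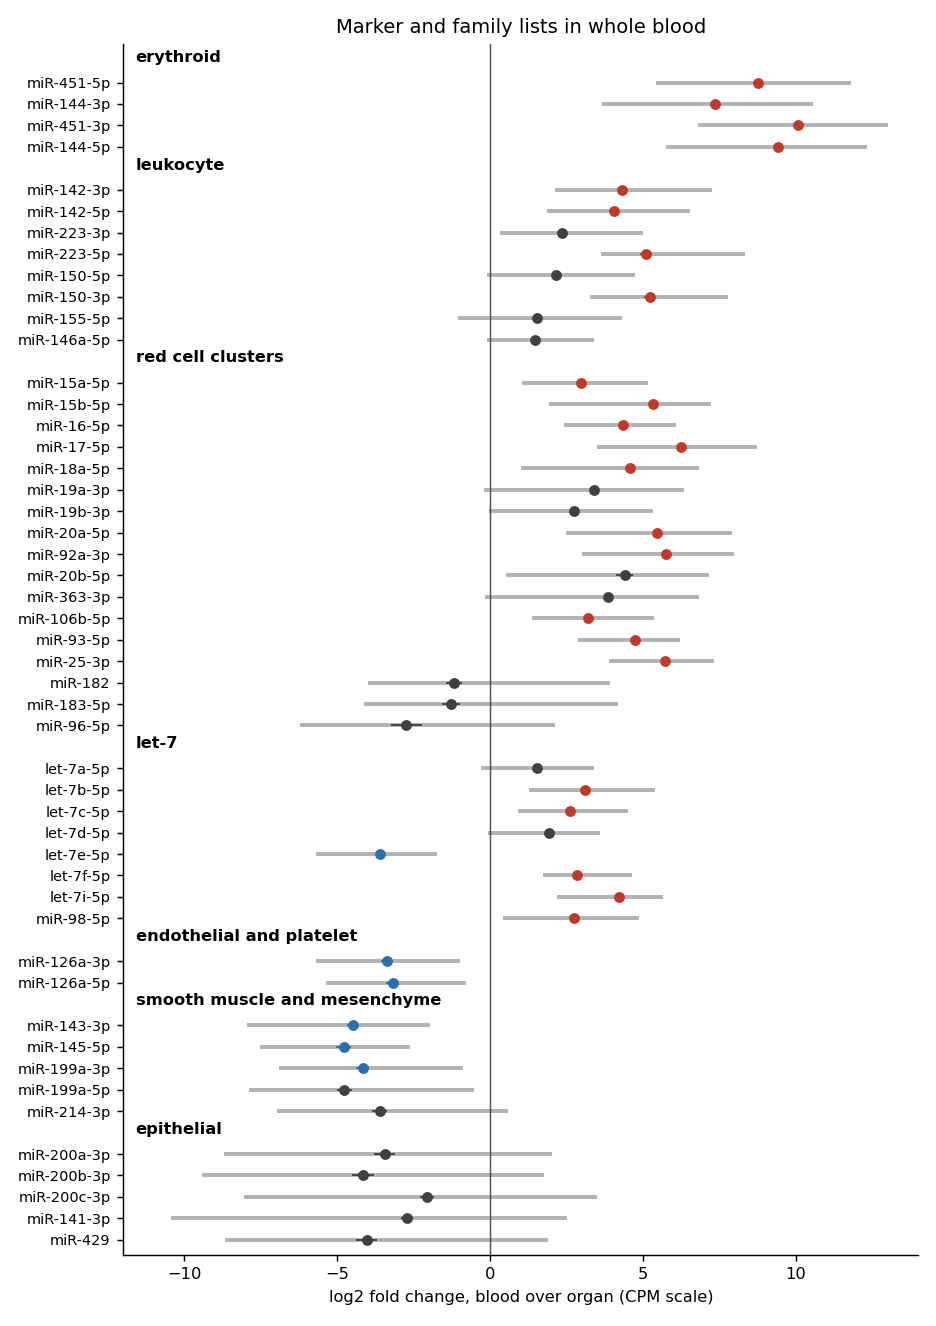
log2 fold change of blood over the mean of 21 organs (points, bars are SE) for the members of 7 lists, with the range of the 21 contrasts with single organs as a grey line. Red points are higher than every organ, blue points lower than every organ; the erythroid strands lie between 7.35 and 10.07, and the endothelial pair near -3.

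A list of 17 miRNAs, called the red cell clusters here, made up a large part of the blood profile. Beside other members named below it held miR-15a-5p, miR-16-5p, miR-18a-5p, miR-19a-3p, miR-19b-3p, miR-20b-5p, miR-92a-3p and miR-106b-5p. Which blood cells held these miRNAs was not tested. The 17 members summed to 287001 to 333123 CPM in the blood libraries, while the organ means lay between 3889 CPM in the non-glandular stomach and 45683 CPM in the testis. Of the 17, 14 were called higher and 3 lower, the same under all 4 scalings, and 10 were higher than every organ, also in 3 scalings. Of all names, 44% were called higher, 20.2% lower and 8.53% higher than every organ. For the 677 single mature names these counts were 214, 236 and 79. miR-25-3p lay between 33783 and 67432 CPM with a median of 43644, against a mean of 3105 CPM in the testis. Further examples, with their log2 differences, were miR-17-5p (6.22 ± 0.06 (SE)), miR-20a-5p (5.43 ± 0.05 (SE)), miR-93-5p (4.73 ± 0.05 (SE)) and miR-15b-5p (5.33 ± 0.06 (SE)), all higher than every organ. miR-363-3p, of the X chromosome copy of the cluster, was higher than 20 of 21 organs but not the testis, whose mean was 149.5 CPM. The 3 that were lower, miR-182, miR-183-5p and miR-96-5p, form a cluster of their own that is known from sensory cells, and miR-182 had a log2 difference of -1.18 ± 0.27 (SE).

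Whether miRNAs that lie together moved together was read from their hairpins in GRCr8, with neighbours no more than 10000 bases apart. There were 45 such clusters with at least 2 hairpins and 2 tested names. In 9 of them every tested name was higher in blood, in 8 every one was lower, and 9 held names of both directions. Among the 9 all-higher clusters were the miR-1 and miR-133a hairpins (chr18:2157872-2160413, minus strand), with 3 of 3 names higher. Without the blood of rat 6, miR-133a-3p of this cluster was called lower (-1.02). Under all 4 scalings every tested name was higher in 4 clusters and lower in 7. Of the 677 tested single mature names, 214 were higher, 155 of them under all 4 scalings and 79 than every organ. The lower ones were 236, 226 of them under all 4 scalings. The miR-17-92a hairpins (chr15:98587848-98588632, plus strand) had 11 of 11 names higher, 10 of them under all 4 scalings, and 6 of them higher than every organ. The miR-25 and miR-93 hairpins (chr12:22156641-22156930, minus strand) had 4 of 4 higher than every organ. The miR-191a and miR-425 hairpins (chr8:118142627-118143166, plus strand) had 4 of 4 higher, 3 of them under all 4 scalings, among them miR-425-5p (2.50 ± 0.07 (SE)). The miR-144 and miR-451 hairpins (chr10:63459397-63459640, plus strand) had 4 of 4 higher than every organ.

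Clusters also moved as a block in the other direction. The hairpins of let-7e, miR-99b and miR-125a (chr1:67350064-67350759, plus strand) had 6 of 6 names lower than every organ, with log2 differences from -4.59 to -3.07. Those of miR-195 and miR-497 (chr10:55450171-55450581, plus strand) had 4 of 4 lower, 3 of them than every organ, and those of miR-29b and miR-29c (chr13:109098831-109099446, plus strand) 3 of 3. The Dlk1-Dio3 region on chromosome 6 gave 3 blocks (chr6:134298084-134331416, chr6:134347815-134354569 and chr6:134543445-134579838, plus strand) with 15, 4 and 52 tested names. None of these names was higher, and 10, 2 and 37 were lower, against 20.2% of all names and 236 of the 677 single mature names. Of those 677, 42 were lower than every organ. In the second block 1 of the 2 was lower under all 4 scalings. Mature names with several gene copies, such as miR-92a-3p, entered every cluster with a copy and could have come from any copy. The chromosome 15 and X chromosome clusters of the miR-17-92 kind thus shared miR-17-5p, miR-19b-3p and miR-92a-3p and were not independent.

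Shared seeds did not mean a shared direction. Seeds were compared among the 527 tested names with a RefSeq sequence. Of 52 seeds held by at least 2 of these names, 3 had a member higher than every organ and another lower than every organ. The seed of the miR-15 and miR-16 family, capitals AGCAGCA in the sequences above, was carried by miR-16-5p and miR-15b-5p, both higher than every organ, by miR-195-5p and miR-497-5p, both lower than every organ, and by miR-322-5p, which was lower on average (-2.75) and higher only than 1 organ. miR-15a-5p, whose leading reads carry the same seed, had no RefSeq sequence and was not counted here. miR-16-5p and miR-195-5p differed by 4.35 against -5.02 in log2 difference. The let-7 seed, GAGGUAG, was carried by 9 names, of which 8 were higher and let-7e-5p was lower than every organ (-3.60 ± 0.14 (SE)), at 31.8 CPM in blood against 48469 CPM for let-7i-5p. For the seed CAGUGCA, miR-148b-3p was higher than every organ (2.33) and miR-152-3p lower (-3.61). These pairs were picked after their values were seen. For comparison, 214 of the 677 single mature names were higher and 236 lower, 79 and 42 of them than every organ.

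Other seeds had members of 1 direction only. Among all 677 single mature names, 214 were higher and 236 lower, 79 and 42 of them than every organ. The 5 names with the seed AAAGUGC (miR-17-5p, miR-20a-5p, miR-20b-5p, miR-93-5p and miR-106b-5p) were higher, 4 of them than every organ. The 3 miR-29 names with the seed AGCACCA were lower than every organ, miR-29a-3p with a log2 difference of -3.04 ± 0.12 (SE). The 3 names with the seed CCCUGAG, miR-125a-5p (-4.59, and -5.27 without rat 6), miR-125b-5p and miR-351-5p, were all lower. miR-99b-5p, the neighbour of miR-125a, was lower as well (-4.32).

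Among the let-7 list, 5 of 8 members were higher than every organ and 1 was lower, against 8.53% and 3.53% of all names. Of the 677 single mature names, 79 and 42 were so called. Under 3 scalings alike, 3 and 1 members of the list were so called. let-7i-5p and let-7f-5p were the most abundant, and let-7i-5p lay between 40096 and 61585 CPM with a median of 48513 in blood against 10579 CPM in its highest organ, the cerebellum. let-7a-5p (1.54 ± 0.09 (SE)) and let-7d-5p (1.93 ± 0.07 (SE)) were higher than 20 organs but not the cerebellum. let-7 miRNAs are known to rise as cells mature. The leading sequence of the name let-7j begins with the same 22 letters as that of let-7i-5p.

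Male and female blood did not differ in edgeR's test at an adjusted p under 0.05. With 5 rats of each sex, 0 of 285 names (0%) passed, 76 had an unadjusted p under 0.05, and DESeq2 called 25 names, 17 of them higher in females. The 3 names with the smallest adjusted p in edgeR were miR-181a-5p, miR-181b-5p and miR-223-3p, each at 0.0971. DESeq2 called all 3 (adjusted p = 0.00612, 0.0173 and 0.00300). miR-181a-5p lay between 66549.9 and 91873 CPM in the 5 females and between 45773 and 53923 CPM in the 5 males, without overlap, a log2 difference of 0.55 ± 0.11 (SE). miR-223-3p showed the reverse, at 103 CPM in females and 231 CPM in males. The RNA integrity number was 7.4 to 7.7 in female and 8.0 to 8.4 in male blood, also without overlap, so that sex and RNA integrity cannot be told apart in these libraries.

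The isomiR table, which lists each sequence counted under a name, gave a second readout of the same libraries. For 28 miRNAs of the erythroid, leukocyte, red cell cluster and let-7 lists the mean length of the reads in blood was set against the mean of the other tissues of the same rat (exact sign-flip permutation test, two-sided, adjusted over both measures; 0.00195 is the smallest p that 10 rats allow, and a rat with too few counts of a miRNA was left out for it). Blood reads were longer for 6 miRNAs (21.4%) and shorter for 12 (42.9%). Without a pair of lanes with altered 5′ ends, which are described further on, the counts were 7 and 11 of 27, and miR-142-3p lost its call. miR-93-5p had the clearest gain for an abundant miRNA, with 22.4 ± 0.113 nt in blood and 22.0 ± 0.0356 nt elsewhere (SD, n = 10 rats), longer in 10 of 10 rats. miR-182 was longer by 0.691 nt and miR-144-3p by 0.239 nt. Of the let-7 list, let-7a-5p, let-7b-5p, let-7c-5p, let-7f-5p and let-7i-5p were shorter, and the difference of let-7i-5p was -0.122 nt, with shorter reads in every rat.

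The leading sequences of miR-93-5p show where the length differs. They are given as T-letter reads with the seed in capitals and differ only at the 3′ end, from 21 to 24 nt.
miR-93-5p, 21 nt: cAAAGTGCtgttcgtgcaggt
miR-93-5p, 23 nt: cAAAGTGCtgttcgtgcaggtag
miR-93-5p, 24 nt: cAAAGTGCtgttcgtgcaggtagt
The 21 nt form made up 35.7% of miR-93-5p counts in blood and 49.2% in the organs, and the 23 nt form 31.1% and 19.3%. The 24 nt form followed with 11.5% and 5.9%. These shares were pooled over all libraries, the pair of lanes described next included, and carry no spread.

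**Figure D5:**
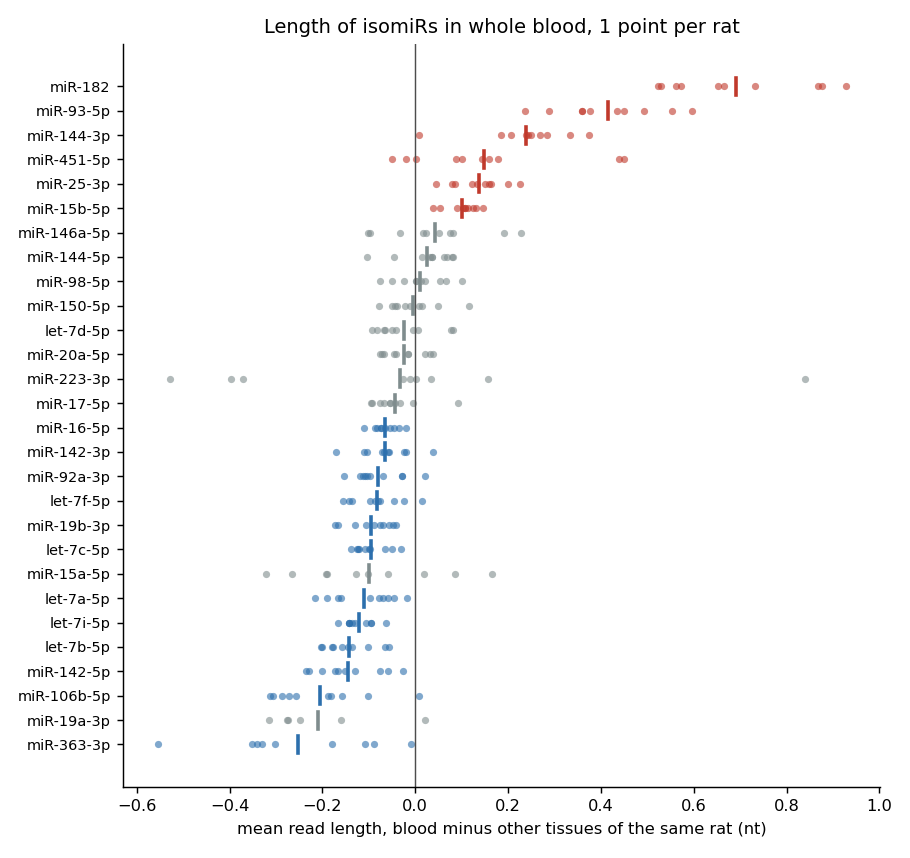
Mean read length in blood minus that of the other tissues of the same rat, in nt, for 28 miRNAs. Each point is 1 rat and the bar their mean; red miRNAs were longer and blue ones shorter past the threshold, and grey ones were not past it.

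The 5′ end sets the seed, and its share was read for the same 28 miRNAs. The most counted end of a miRNA was read from its first 6 letters, with the counts of blood and organ libraries pooled. Read against all organ libraries, 23 miRNAs (82.1%) had more of their blood counts at the most counted 5′ end and 1 (3.57%) had less. This result rested largely on a pair of sequencing lanes. The 13 organ libraries of 1 lane had only 48.7% to 54.1% of miR-16-5p counts at that end, since the others began with 1 extra letter, and the 12 of another lane had 94.7% to 97.9%, whereas the 170 other libraries had 99.2% to 99.8%. No blood library was on these lanes. Without these 25 libraries, 5 of 27 miRNAs (18.5%) had a higher share in blood and 1 (3.7%) a lower one.

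The calls that held without these lanes were in miRNAs of the leukocyte, erythroid and red cell cluster lists. miR-142-5p had 75.3% ± 2.93 of its counts at the most counted 5′ end in blood and 65.2% ± 1.56 elsewhere, with the higher share in 10 of 10 rats. miR-146a-5p had 91.6% and 82.0%, and miR-144-5p 97.0% and 93.5%. miR-17-5p and miR-20a-5p rose by less than 1 percentage point. miR-142-3p had less at its most counted end, 30.8% in blood and 40.0% elsewhere, in 10 of 10 rats. For miR-142-5p that end is the start of the first form shown next. For miR-142-3p it is the start of the second form, which is the RefSeq start and not the leading start in blood.

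The sequences show the 5′ ends of miR-142. The reads below are the leading forms in blood, with bases 2 to 8 of each read in capitals.
miR-142-5p, first form: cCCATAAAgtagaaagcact
miR-142-5p, second form: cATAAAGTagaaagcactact
miR-142-3p, first form: aGTGTTTCctactttatggatg
miR-142-3p, second form: tGTAGTGTttcctactttatgga
The first miR-142-5p form starts with 2 letters more than the second, which has the start of the RefSeq mature sequence, and so has a seed shifted by 2 letters. The first form held 47.7% of miR-142-5p counts in blood and 36.4% in the organs, and the second 19.1% and 27.9%. For miR-142-3p, the form that begins 3 letters later held 47.5% in blood and 29.6% in the organs, and the form with the RefSeq start held 16.0% and 21.6%. These shares too were pooled over all libraries, the 25 on the altered lanes included, and carry no spread.

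The organs whose mean profile was nearest to blood by Pearson's r over the 1360 names (log2 of CPM + 1) were the liver (0.826), the heart (0.810) and the kidney cortex (0.807), and the farthest was the cerebrum (0.634); these r are descriptions over names that share libraries and depth. Between single blood libraries, r over these names was 0.832 to 0.970. miR-451-5p was also highest in the liver and heart among the organs.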

How the data were processed

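Reads had been trimmed with cutadapt 1.4.1 by the submitters' processing notes and, by the study's methods, assigned with miRDeep2 to miRBase names of rat, mouse, human and C. elegans in that order. The values used are these deposited counts per miRNA name and, in a second deposited table, counts per isomiR sequence, neither of them normalized by the authors. Sequences that fit several names carry a composite name, and names starting with a chromosome are predicted miRNAs. The genome build and annotation behind single counts were not used here.

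The 458 runs were summed to 215 libraries after 14 runs that name the lane of another run were set aside; none of these was blood. Each blood library came from 2 runs. Of 7534 names, 10 contain miR-486 and were removed before totals were formed. Tests used edgeR 4.0.16 in R 4.3.3 with DESeq2 1.42.0 as an alternative, filterByExpr on tissue, the library total as offset and an adjusted p threshold of 0.05. Names are matched word for word. The scripts were tested on simulated data, in Python 3.11.15.

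Named miRNAs are the 12 highest in blood, the 12 largest rises (at least 10 CPM in blood) and 10 largest falls (at least 100 CPM in the organs) among single mature names called alike under 4 scalings, the members of the lists, and the 3 smallest adjusted p values for sex. Names chosen after their values were seen are those given for shared seeds and clusters (miR-322-5p, miR-148b-3p, miR-152-3p, miR-29a-3p, miR-125a-5p, miR-99b-5p) and by non-overlap. Members and lists were chosen with earlier results of these data known. IsomiR tests needed at least 50 counts of the miRNA in a library.

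The libraries of a group come from separate rats. Tissues with the same number come from the same rat, so the numbers pair the samples; deviations from tissue means correlated at a mean r of 0.0144 within rats (1808 pairs) and -0.000662 between rats (16293 pairs). Each rat has only 1 sex, and the comparison of sexes therefore has no fit with the rat as a block. Alternatives changed the scaling, the filter, the runs, the flow cells, the libraries and the rat as a block.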

Additional observations from a re-analysis of the deposited data

Results flagged for a closer look

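For 70 of the named miRNAs, blood levels were checked with Dixon's test at the 95% level. In 24 of them 1 blood library lay far from the other 9, which chance alone marks in about 1 of 20 groups. The blood of rat 6 accounted for 16 of them, always as the highest library. These were miR-133a-3p (15365 CPM), miR-143-3p (13706 CPM), miR-126a-5p (2718 CPM), miR-126a-3p (784 CPM), miR-125a-5p (746 CPM), miR-99b-5p (679 CPM), miR-29a-3p (635 CPM), miR-125b-5p (369 CPM), miR-322-5p (127 CPM), miR-499-5p (114 CPM), miR-1-3p (77.6 CPM), miR-145-5p (72.8 CPM), miR-208a-3p (66.4 CPM), miR-497-5p (49.6 CPM), miR-195-5p (29.6 CPM) and miR-199a-5p (20.01 CPM). They include muscle, vessel and stromal miRNAs, and the part of any other tissue in this library was not tested. miR-208b-3p was not among the 70 checked. It stood at 45.6 CPM in the blood of rat 6 and at 0 to 5.85 CPM in the other 9.

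In the blood of rat 3, 4 miRNAs were flagged as highest. They were miR-451-5p (87505 CPM), miR-3107-5p (25117 CPM), miR-9a-5p (102.3 CPM) and miR-136-5p (2.92 CPM). miR-409a-3p was highest in the blood of rat 9 (3.90 CPM), where miR-6937-5p was lowest (1.95 CPM). A level of 3 counts is 2.92 CPM in the blood of rat 3 and 5.85 CPM in that of rat 9. The flags of miR-136-5p, miR-409a-3p and miR-6937-5p thus rest on 3 counts or fewer in the flagged library. The blood of rat 10 was highest for miR-375-3p (90.6 CPM) and miR-200b-3p (28.7 CPM). The names left out of the comparison carried a signal of their own, since those containing miR-486 held a median of 85.8% of blood counts.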

How the results depend on the processing

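Of 70 of the named miRNAs, 50 kept direction and call under every alternative run. miR-208b-3p, which lost its call without rat 6, was not among these 70. The number of names higher than the mean of the organs (598) was 318 with TMM factors, 373 with DESeq2, 113 with names containing miR-486 kept, 1116 without a filter on low counts, 348 on the shared flow cell, 211 for single mature names, 260 after thinning to 373219 counts, 313 with organs as 1 group, 380 without the blood of rats 9 and 10, and 335 on flow cell AD2C4RACXX alone. The number lower (275) was 549, 152, 169 and 421 with miR-486 kept, on the shared flow cell, after thinning and with organs as 1 group. Leaving out single libraries of blood, testis, ovary or uterus gave 475 to 649 higher and 267 to 277 lower. Names lower than every organ were 84 with TMM factors. With miR-486 kept, 6 names lay above and 79 below all organ libraries.

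Differences between the sexes were called for 25 names by DESeq2, 41 without a filter, 1 on the shared flow cell and 0 to 3 without single rats, 3 of them without rat 8. IsomiRs were longer in blood for 3 of the 18 miRNAs tested on the shared flow cell, and for 6 to 7 without single rats (shorter for 12 to 14). The share at the 5′ end was higher for 4 and lower for 0 on the shared flow cell, higher for 5 without 2 lanes, and without single rats higher for 23 to 24 and lower for 1.

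With miR-486 kept, signs turned for miR-181a-5p (-0.97), miR-26a-5p (-2.17), let-7c-5p (-0.18), miR-27b-3p (-2.33), miR-223-3p (-0.41), miR-150-5p (-0.61), miR-146a-5p (-1.38), miR-133a-3p (-1.02), miR-128-3p (-1.003), let-7d-5p (-0.83), let-7a-5p (-1.24), miR-148b-3p (-0.49) and miR-425-5p (-0.27); by construction this setting lowers every other share in blood. With organs as 1 group they turned for miR-208a-3p (-1.90), miR-133a-3p (-4.36), miR-1-3p (-3.52), miR-122-5p (-5.36), miR-128-3p (-2.20) and miR-449a-5p (-2.24), where organs that hold the miRNA weigh more; of these, miR-133a-3p alone passed the test there (edgeR, adjusted p = 0.0349). miR-26a-5p was -0.45 with TMM and -0.10 with DESeq2, and miR-27b-3p -0.64 and -0.26. miR-30a-5p was 0.058 with upper quartile factors and gained a call as lower with TMM (-1.14) and DESeq2 (-0.80). miR-133a-3p ranged from -1.02 to 1.55 without single libraries, the lowest without rat 6, and was -0.45 on the shared flow cell and -0.72 on flow cell AD2C4RACXX, and miR-499-5p was 0.24 on flow cell BC2BUMACXX. The cause was not tested for the scalings and the flow cells. The fit with the rat as a replicate block (577 higher and 273 lower than the mean, 112 and 47 than every organ) changed no call of a named miRNA. The flow cells alone, the 2 lanes and the blood of rats 6, 9 and 10 were chosen after the data had been seen. At 512623 to 1249464 counts, levels of a few CPM in blood rest on few counts.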
